A study of Rattus norvegicus with 8 samples.

Results

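The cytosolic ribosomal protein genes were taken as all genes whose symbol in the platform annotation starts with Rpl or Rps, apart from the Rps6k kinases. The array held 68 such probes for 67 genes. The detection filter, a p under 0.05 on 2 or more of the 8 arrays, left 64 probes for 63 genes among the 13114 probes tested of 22523 on the array. The probes of Rpl11, Rpl34, Rpl36a and Rps19 were above background on none of the 8 arrays, so no level is given for these genes. Of the 63 genes, 60 were above background on all 8 arrays, Rps19bp1 on 7, Rpl30 on 6 and Rpl12 on 2, both of them BDIV arrays. The rule also took in Rps19bp1, which encodes a binding partner of Rps19 and regulator of Sirt1 and not a ribosome subunit. Rpl30 is described on its own, and the other 62 genes are given as the set.

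The tissue was the trigeminal nerve, the cranial nerve that carries facial sensation, of untreated rats aged 85 days, profiled on Illumina RatRef-12 bead arrays. The groups were the inbred strain BDIV, 2 congenic strains, BDIX.BDIV-Mss4a (Mss4a from here on) and BDIX.BDIV-Mss4d (Mss4d), which by their names hold BDIV chromosome segments in a BDIX genome, and the inbred strain BDIX. BDIV rats are known to resist, and BDIX rats to develop, malignant trigeminal nerve tumours after ethylnitrosourea, which none of these animals received. Each strain gave 1 pool of male nerves and 1 pool of female nerves on 1 array each, so each strain and sex was seen once, and how many animals went into a pool is not given.

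A cytosolic ribosome has a small subunit, which reads the mRNA, and a large subunit, which forms the peptide bond, and each is built from rRNA and proteins encoded by single genes scattered over the genome. In mammals the mRNAs of these proteins start with a C followed by a run of pyrimidines, the terminal oligopyrimidine or TOP start, through which mTOR sets their translation together. Peripheral nerve holds Schwann cells, fibroblasts, vessels and sensory axons, and all of these cells use the same ribosomal protein genes.

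Array facts that bear on all values are few. The median deposited signal was 86.9 and 80.2 on the BDIX male and female arrays and between 93.5 and 145 on the other 6, and 47.7% to 54.3% of probes were above background. The Mss4d arrays were brightest, at 141 and 145 in the male and female pools, while the BDIV and Mss4a arrays lay together, at 93.5 to 98.7. The chip and scan of each array are not given, so strain and array batch cannot be told apart, and the small number of arrays limits the precision. Defining markers of Schwann cells were above background on every array (11 of 11 with a probe, among them Sox10 and Mbp), as were 16 or 17 of 18 sensory neuron markers. Scn9a was not above background on any array, and Calca was above it on the Mss4d arrays only. There Calca was at 14.83 and 8.92 in the male and female pools, beside the thyroid marker Tg at 14.87 and 12.2. The source of that Calca signal was not tested. In bulk nerve, fewer cells of a type and less RNA per cell cannot be told apart.

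The start sites of 4 members whose levels differed between strains are shown because they carry both kinds of start found in the set, with and without a TOP start. The windows run from 120 bases before the annotated start to 30 bases after it, 5′ to 3′ on the gene's own strand, from RefSeq on the GRCr8 assembly. Capitals mark a TOP start or one of the motifs CTTTCC (a pyrimidine stretch) and ATGGCG (the letters of a YY1 core), searched together with CCGGAAG and TATAAA on both strands. The ATGGCG of Rps3a lies after the annotated start, where the letters ATG can also be a start codon. Rps27 and Rps3a, lower in Mss4a, have a TOP start, and in Rps27 the CTTTCC overlaps it. Rpl5 and Rpl22l1, higher in BDIV, have none at the annotated position. In order, the windows are chr2:177964577-177964726 (minus strand), chr2:173827013-173827162 (minus strand), chr14:1995196-1995345 (minus strand) and chr2:113683076-113683225 (plus strand).
Rps27: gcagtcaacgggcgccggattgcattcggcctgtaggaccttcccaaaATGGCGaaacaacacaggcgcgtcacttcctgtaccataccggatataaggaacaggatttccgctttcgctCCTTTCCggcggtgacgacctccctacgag
Rps3a: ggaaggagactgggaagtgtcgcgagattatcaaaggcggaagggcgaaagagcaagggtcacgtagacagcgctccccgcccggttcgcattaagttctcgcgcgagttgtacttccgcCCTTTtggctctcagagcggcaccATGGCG
Rpl5: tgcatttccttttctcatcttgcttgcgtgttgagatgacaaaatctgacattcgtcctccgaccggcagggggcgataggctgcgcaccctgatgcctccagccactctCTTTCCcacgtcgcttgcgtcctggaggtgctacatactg
Rpl22l1: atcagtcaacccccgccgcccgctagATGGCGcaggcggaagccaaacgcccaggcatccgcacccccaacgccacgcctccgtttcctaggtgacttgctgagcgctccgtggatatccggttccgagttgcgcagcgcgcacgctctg

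Of the 63 genes, 51 had a promoter in the RefSeq table, and 20 of them (39.2%) began with a C followed by 4 pyrimidines, against 2.63% of all 27457 promoters. From 250 bases before the start to 50 after it, CCGGAAG, the core of ETS and GABP sites, was present in 29.4% of these members against 9.22% of all promoters. ATGGCG was present in 27.5% against 10.6%, CTTTCC in 47.1% against 26.4%, and TATAAA in 7.84% against 14.3%. These are matches of letters and describe the windows only.

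Rpl30, a large subunit protein, stood apart from all other members. Its log2 level (background-corrected and quantile-normalized bead signal) was 12.31 and 12.27 in the BDIV male and female pools. It was 7.13 and 7.06 in Mss4d and 7.05 and 5.90 in BDIX, male and female. In Mss4a it was 5.24 and 5.05, not above background in either pool. The same order stood in the deposited signals, with 6433 and 6309 in BDIV, 270 and 262 in Mss4d, 181 and 104 in BDIX and 97.1 and 88.3 in Mss4a. BDIV was far above the other 3 strains in both sexes, while Mss4d and BDIX were neighbours: the lower Mss4d pool was at 7.06 and the higher BDIX pool at 7.05, a gap far smaller than the 1.15 between the BDIX pools.

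The Rpl30 level was 5.81 (SE 0.30) higher on the log2 scale in BDIV than in BDIX, or 56.2-fold, the largest rise among the 13114 probes, the next being 5.1. It was 36.6-fold higher in BDIV than in Mss4d and at least 115-fold higher than in Mss4a, where the bound uses the lowest detected level of each dim array, or the probe's own level if higher. On the same footing Rpl30 was at least 2.04-fold lower in Mss4a than in BDIX and at least 3.14-fold lower than in Mss4d. Since Rpl30 was singled out for this pattern, these values are a description without a test. Among the other 62 genes the largest BDIV minus BDIX difference was 1.86, and the median was 0.23. Rpl30 is a gene with many near copies: GRCr8 lists 15 entries under its name, 12 of them named as pseudogenes and 3 as Rpl30-like, on 11 chromosomes, and the probe's sequence was not used here, so which of them it reads is uncertain.

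**Figure D1:**
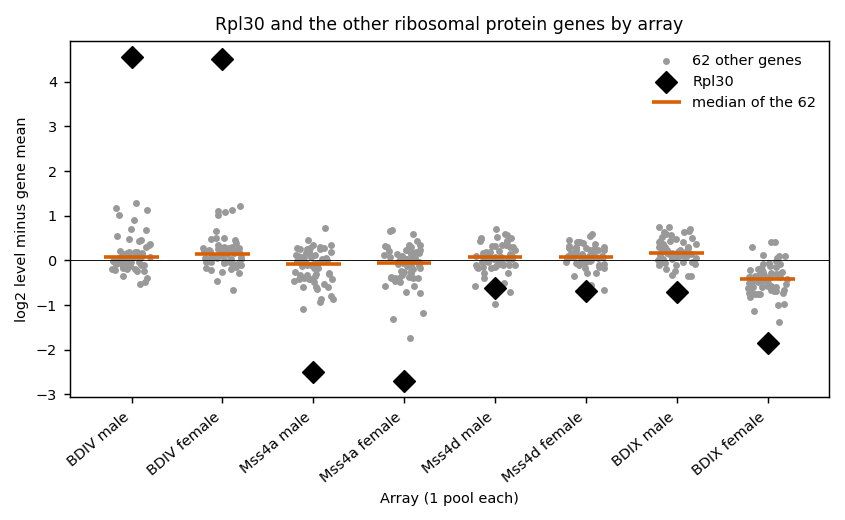
Each gene's log2 level minus its own mean over the 8 arrays (vertical axis), by array (horizontal axis, 1 pool each): black diamonds are Rpl30, grey points the other 62 genes and orange lines their median. Rpl30 lies at 4.56 and 4.52 on the BDIV male and female arrays and below 0 on the other 6, and the set's median is lowest, at -0.41, on the BDIX female array.

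The genes with a symbol whose pattern over the 8 arrays was most like that of Rpl30, by Pearson correlation, were Cdk5 (0.989), a neuronal kinase, Tmem276 (0.987), Rab14 (0.987), an endosomal GTPase, Reep5 (0.987), a shaper of tubular endoplasmic reticulum, and C20h6orf136 (0.984). The arrays come in pairs of 1 strain, and the BDIV pair set these values. The size of the difference was not shared: Cdk5 was 0.99 higher in BDIV than in BDIX on the log2 scale and Reep5 2.09 higher, against 5.81 for Rpl30. Among the other members the closest patterns were those of Rpl5 (0.926), Rplp2 (0.885), Rpl24 (0.884), Rps19bp1 (0.834) and Rpl12 (0.79).

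Some of the other 62 genes varied among the strains. In a limma moderated F test over the 4 strains, 12 of the 62 (19.4%) had an adjusted p under 0.05, against 39.9% of all probes tested. They were Rpl14, Rps27, Rps3a, Rpl7l1, Rpl24, Rpl7, Rps2, Rpl22l1, Rps24, Rpl5, Rplp2 and Rps19bp1. The median range of the 4 strain means was 0.63 on the log2 scale, against 0.82 over all probes. Most members have bright probes, and at a level of 12, a value chosen after the levels were seen, the set parted: of the 45 members above it 4 were called (8.89%), against 29.6% of all 846 probes above it, and of the 17 at or below it 8 were called (47.1%), against 40.6% of the 12268 probes there. The share moved with the BDIX arrays: with the BDIX male array left out 29 members (46.8%) were called, against 43.5% of all probes, and with the BDIX female array left out 19 (30.6%), against 33.3%. Leaving out the Mss4a male array gave 7 (11.3%), against 31.5%. Leaving out the BDIV female or male array left 0 members (8 and 12 at an unadjusted p under 0.05 in limma), but also 0.191% and 0.808% of all probes, so those counts do not bear on the members.

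The narrowest ranges of strain means were those of Rpl9 (0.10), Rpl3 (0.17), Rplp0 (0.18), Rpl32 (0.23) and Rpl23a (0.24), with Rps18 of the small subunit also at 0.24. Apart from Rps18 these are among the brightest members. In the BDIV female pool Rpl23a and Rplp0 had deposited signals of 31919 and 30509, where the highest on that array was 33202. Signals near the top of an array, and quantile normalization of the top ranks, can narrow such ranges. Their part was not tested, so a narrow range is not read as stable expression. Rplp0, the base of the stalk that recruits translation factors and a common reference gene, was at 15.03 and 15.01 in BDIV, 15.11 and 15.18 in Mss4a, 15.22 and 15.01 in Mss4d and 15.03 and 14.89 in BDIX, male and female. Its BDIV, Mss4d and BDIX pools overlapped, and both Mss4a pools lay above the BDIV and BDIX pools, by 0.18 (SE 0.18, limma adjusted p = 0.504) on average against BDIX. The widest ranges were those of Rpl24 (2.32), Rps19bp1 (2.24), Rpl7 (1.92), Rplp2 (1.86) and Rpl5 (1.46). Probe brightness ran from a mean of 5.10 for Rpl12 to 15.06 for Rplp0, and since probes differ in efficiency these are not compared as transcript levels.

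**Figure D2:**
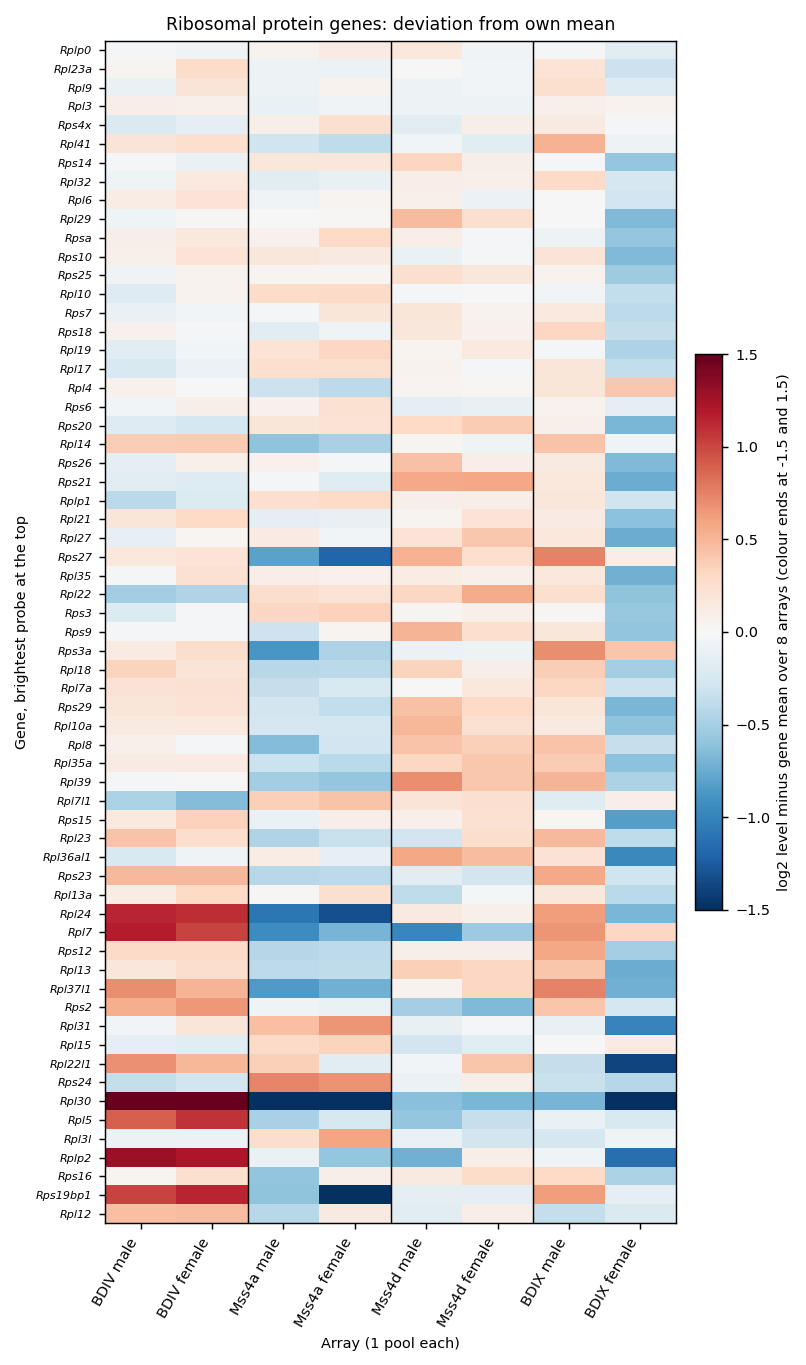
Log2 level of each of the 63 genes minus its own mean (colour, ending at -1.5 and 1.5) on the 8 arrays (columns, 1 pool each), with the gene of the brightest probe at the top. The blue column is the BDIX female array, where 37 of the 62 genes other than Rpl30 had their lowest value, and many of the strongest strain colours lie in the dimmer genes of the lower part.

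Between BDIV and BDIX, 4 of 61 genes were higher in BDIV and 0 were lower, Rpl12 not counted, beside 21.0% of all probes called, 1313 higher and 1445 lower (limma, Benjamini-Hochberg adjusted p under 0.05 over 13114 probes). The members' share was 6.56%. The 4 were large subunit genes: Rplp2 of the stalk, Rpl5, which binds 5S rRNA and with Rpl11 restrains Mdm2, Rpl24, which bridges to the small subunit, and Rpl22l1, a paralogue of Rpl22. The median difference was 0.23, against -0.03 over all probes, and 50 of 62 genes lay above 0. This direction rested on the BDIX female pool: without it the median was -0.10, and in the male pools it was -0.11, with 15 genes above and 44 below 0. The large and small subunits did not part: the median was 0.23 in the 39 Rpl genes and in the 23 Rps genes, Rps19bp1 counted among the latter.

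Rpl5 was at 8.42 and 8.61 in the BDIV male and female pools, against 7.43 and 7.30 in BDIX. The difference was 1.15 (SE 0.19, limma adjusted p = 0.0106), and the BDIV pools were also above all 4 congenic pools, at 6.94 to 7.28. Rplp2 was at 8.65 and 8.57 in BDIV, against 7.29 and 6.22 in BDIX, a difference of 1.86 (SE 0.40, limma adjusted p = 0.0217). Its BDIX pools lay 1.07 apart, and the congenic pools, at 6.64 to 7.45, were near them.

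Rpl24 was at 12.37 and 12.34 in the BDIV male and female pools, against 11.86 and 10.55 in BDIX, and differed by 1.15 (SE 0.33, limma adjusted p = 0.0473). Most of that difference lay in the female pools. Rpl22l1 was at 9.40 and 9.21 in BDIV, against 8.36 and 7.34 in BDIX, and differed by 1.45 (SE 0.33, limma adjusted p = 0.0252). The congenic strains lay between, from 8.55 to 9.13. Rpl12, at the base of the stalk, was just above background in BDIV, at 5.55 and 5.56, and not above it in BDIX, a level at least 1.31-fold higher in BDIV. It passed the detection filter only through the BDIV arrays, so its value is a description with no test.

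**Figure D3:**
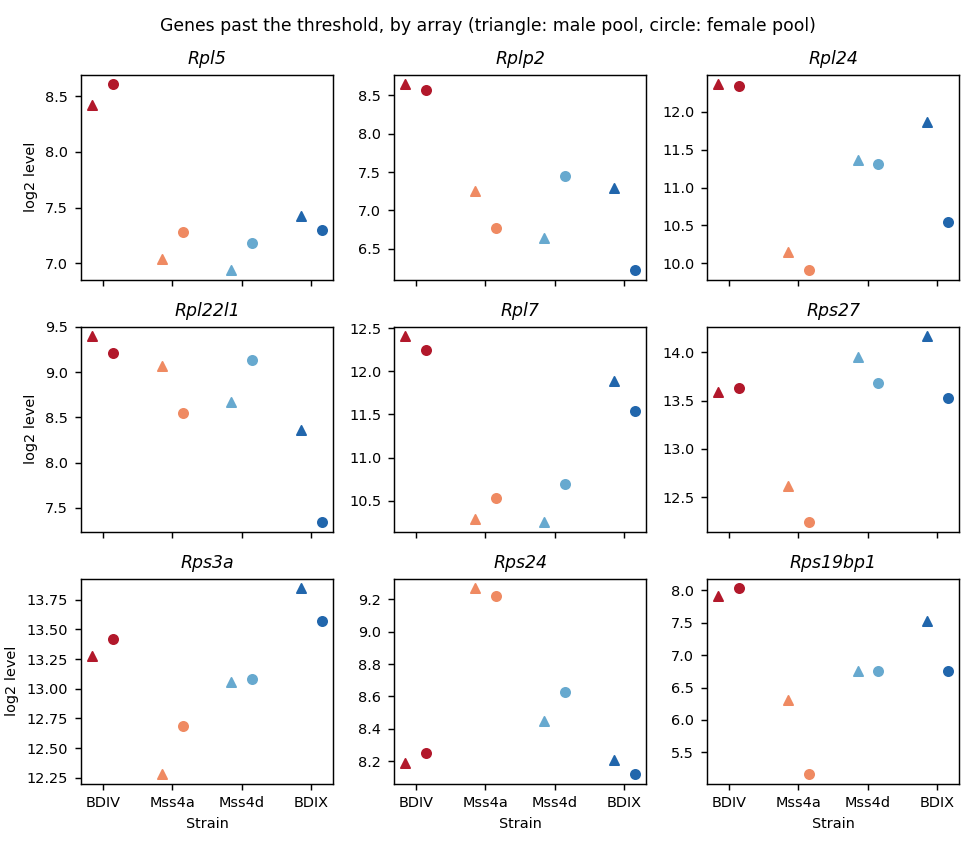
Log2 level by strain (horizontal axis) of 9 genes with an adjusted p under 0.05 in a strain comparison, with the male pool as a triangle and the female pool as a circle and a vertical axis of its own for each gene. Rpl5 and Rplp2 are high in both BDIV pools, Rps27, Rps3a and Rps19bp1 low in both Mss4a pools, and Rps24 high in both Mss4a pools.

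With the BDIX male array left out 15 of the 62 genes (24.2%) were called, all higher in BDIV, against 19.3% of all probes. With the BDIX female, BDIV male or BDIV female array left out 0 members passed (8, 6 and 4 at an unadjusted p under 0.05 in limma), and of all 13114 probes 32, 56 and 14, so those runs could hardly pass any member. Over the 8 runs the differences were 0.98 to 1.33 for Rpl5 and 1.29 to 2.44 for Rplp2, while those of Rpl24 lay between 0.55 and 1.75 and those of Rpl22l1 between 0.99 and 1.92. Beside it, summed marker levels moved too: sensory neuron markers summed to 190989 and 190222 in the BDIV male and female pools against 101572 and 115878 in BDIX, Schwann cell markers to 72772 and 61972 against 108179 and 142465, fibroblast markers to 83245 and 72356 against 117368 and 125638, and red cell markers to 23558 and 16806 against 76906 and 81677. Of 17 sensory neuron markers tested 9 were higher in BDIV, and of 11 Schwann cell, 13 fibroblast and 10 red cell markers 7 each were lower. Of 10 granulocyte markers 3 were lower, and of 4 pituitary markers 1, Prl. Of 7 muscle markers 1, Acta1, was higher, and no thyroid or nasal and salivary marker was called. Of all probes 21.0% were called in BDIV minus BDIX. The part of these markers in the ribosomal protein values was not tested.

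Between Mss4a and BDIX, 1 of the 62 genes was higher in Mss4a and 4 were lower, beside 12.2% of all probes called, 4.78% higher and 7.46% lower. The gene that was higher was Rps24, a small subunit gene mutated in some families with Diamond-Blackfan anaemia. The genes that were lower were Rps27, a zinc finger protein, and Rps3a of the small subunit, Rpl7 of the large subunit, and Rps19bp1. The median difference was 0.13, against 0 over all probes, and 34 of 62 genes lay above 0, and it was -0.21 without the BDIX female array.

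Rps27 was at 12.62 and 12.24 in the Mss4a male and female pools, against 14.17 and 13.53 in BDIX, a difference of -1.42 (SE 0.21, limma adjusted p = 0.0167). The BDIV and Mss4d pools, at 13.59 to 13.95, lay beside BDIX, so only the Mss4a pools stood low. Rps3a was at 12.28 and 12.69 in Mss4a, against 13.85 and 13.57 in BDIX, and differed by -1.23 (SE 0.21, limma adjusted p = 0.0222). Its Mss4d pools, at 13.06 and 13.08, were lower than BDIX by an amount that missed the threshold (-0.64, SE 0.21, limma adjusted p = 0.121).

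Rps24 was at 9.27 and 9.22 in the Mss4a male and female pools, against 8.21 and 8.12 in BDIX, a difference of 1.08 (SE 0.18, limma adjusted p = 0.0199). No other strain reached the Mss4a level. Rps19bp1 was at 6.30 and 5.16 in Mss4a, against 7.53 and 6.76 in BDIX, and differed by -1.41 (SE 0.33, limma adjusted p = 0.0384). Its Mss4a female pool was not above background, and the 1.13 between its Mss4a pools was the widest gap between the sexes of any member in that strain.

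Of the 8 runs with 1 array left out, 5 passed few probes of any kind in Mss4a minus BDIX. No member passed when the BDIX female array (23 at an unadjusted p under 0.05 in limma) or the Mss4a female array (9) was left out, where 0 and 165 of all 13114 probes passed, and 1 passed without the Mss4a male array or without either BDIV array, where 204 to 248 probes did. Leaving out the BDIX male array gave 3 members (4.84%), of which 2 were higher, against 7.51% of all probes. Over the 8 runs the differences were -1.64 to -1.19 for Rps27, -1.46 to -0.98 for Rps3a, 1.01 to 1.16 for Rps24 and -1.93 to -0.97 for Rps19bp1. With arrays scaled to their medians in place of quantiles, 0 were higher and 15 lower (24.2%, against 30.5% of all probes), as the median of all probes moved to -0.37 and that of the members to -0.24. Nasal and salivary gland markers summed to 5230 and 5428 in the Mss4a male and female pools against 269 and 255 in BDIX, with Omp, Sult1c2 and Obp1f not above background. All 6 tested markers were higher. Of these, Lipf, Vegp2, Cyp2g1 and Cyp2a3 passed the detection filter only through the Mss4a arrays, so that count is no test. Of 7 muscle markers 3 were higher, beside 12.2% of all probes called in Mss4a minus BDIX. Among them was Mb, which likewise passed only through the Mss4a arrays. The part of these markers in the ribosomal protein values was not tested.

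Between Mss4d and BDIX, 0 of the 62 genes were higher and 1 was lower, beside 5.34% of all probes called, 1.38% higher and 3.96% lower. It was Rpl7, a large subunit protein, which was also lower in Mss4a. Rpl7 was at 10.25 and 10.69 in the Mss4d male and female pools and at 10.29 and 10.53 in Mss4a, against 11.89 and 11.54 in BDIX. The difference was -1.25 (SE 0.24, limma adjusted p = 0.0356) in Mss4d and -1.31 (SE 0.24, limma adjusted p = 0.0238) in Mss4a. Both comparisons share the BDIX pools. In BDIV it was at 12.41 and 12.25, above BDIX by 0.62 (SE 0.24, limma adjusted p = 0.108), and GRCr8 lists 26 entries named after Rpl7, so the probe may read relatives. The same limit holds for other called genes. GRCr8 lists 14 such entries for Rps24, 12 for Rpl5, 11 for Rps3a, 9 for Rpl24, 7 for Rps27, 5 for Rplp2 and 2 for Rpl22l1.

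The median Mss4d minus BDIX difference was 0.22, against 0.01 over all probes, with 44 of 62 genes above 0. Without the BDIX female array it was -0.09, and in the male pools -0.07, with 27 genes above and 34 below 0. Without the BDIX male array 10 genes (16.1%) were called, all higher, against 9.01% of all probes, and Rpl7 was not among them. Rpl7 also missed the threshold without the BDIX female array, either Mss4d array or either BDIV array, where 0 to 314 of all probes passed, and its difference over the 8 runs was -1.52 to -0.99. With arrays scaled to their medians 10 were higher and 0 lower (16.1%, against 20.8% of all probes), when the median of all probes was 0.25 and that of the members 0.61. Thyroid markers summed to 49447 and 5303 in the Mss4d male and female pools against 329 and 330 in BDIX, with 1 of 5 tested markers higher. It was Tg, high in both Mss4d pools. Tg passed the detection filter only through the Mss4d arrays, so its call is no test. Slc26a4 was above background in neither Mss4d pool, and Foxe1, Iyd, Pax8 and Nkx2-1 were above it in the male pool alone. Of 11 Schwann cell markers 0 were higher and 2 lower in Mss4d, beside 5.34% of all probes called. They were Mbp (-2.12, SE 0.24, limma adjusted p = 0.0138) and Ugt8 (-1.08, SE 0.21, limma adjusted p = 0.0362). In Mss4a minus BDIX 0 were higher and 3 lower, beside 12.2% of all probes. They were Mbp (-2.12, SE 0.24, limma adjusted p = 0.011), Ugt8 (-1.77, SE 0.21, limma adjusted p = 0.0111) and Mag (-1.15, SE 0.27, limma adjusted p = 0.0394). Prl, of 4 pituitary markers, was lower in Mss4d (-3.90, SE 0.78, limma adjusted p = 0.0399). The part of these markers in the ribosomal protein values was not tested.

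Between Mss4a and Mss4d, 0 of the 62 genes were higher and 1, Rps27, was lower in Mss4a, beside 1.22% of all probes called, 0.297% higher and 0.923% lower. Rps27 was at 12.62 and 12.24 in the Mss4a male and female pools, against 13.95 and 13.68 in Mss4d, and differed by -1.38 (SE 0.21, limma adjusted p = 0.0429). It was the only member also called against BDIX in the same direction by this test, and the Mss4a pools serve both comparisons. With each of the 8 arrays omitted in turn the difference was -1.42 to -1.33 and the limma adjusted p 0.0522 to 0.199, in runs that passed 0 to 249 of all 13114 probes. The median difference was -0.15, against 0.01 over all probes. With arrays scaled to their medians 40 members (64.5%) were lower, against 50.9% of all probes called, when the median of all probes was -0.65 and that of the members -0.97.

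**Figure D4:**
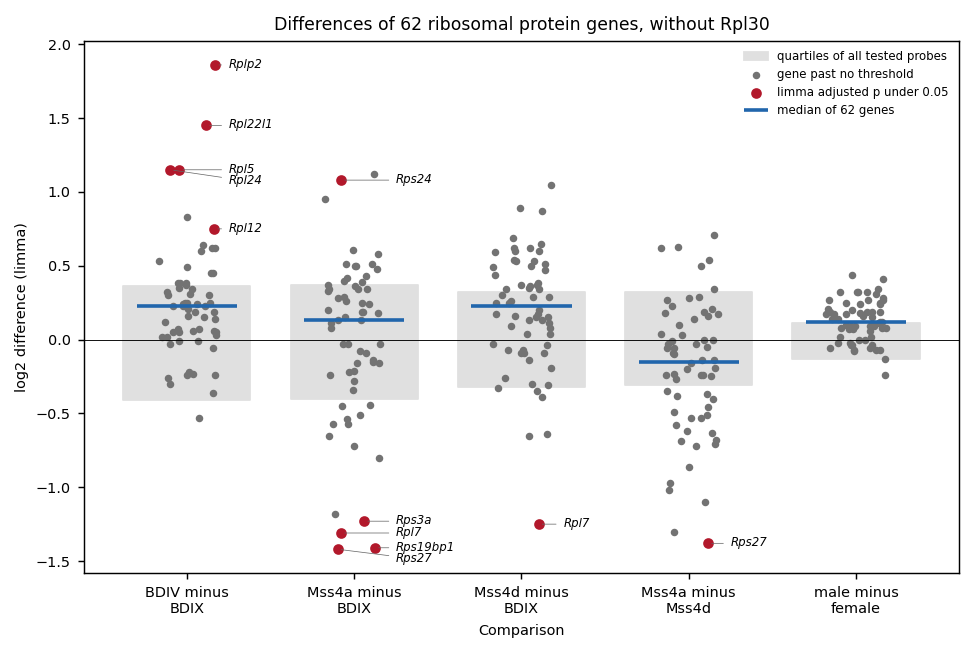
Log2 differences (vertical axis) of the 62 genes in the 5 comparisons (horizontal axis): red points passed the limma adjusted p of 0.05, grey points did not, blue lines are the genes' medians and grey boxes the quartiles of all probes tested. The medians are 0.23, 0.13, 0.22, -0.15 and 0.12 from left to right, and the called genes are few, Rpl12 among the red points of the first.

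The counts by role that follow are a description. Beside them stand the shares of all probes called, 21.0% in BDIV, 12.2% in Mss4a and 5.34% in Mss4d against BDIX. In Mss4a minus Mss4d the share was 1.22%. By role, 1 of the 3 stalk genes was called, Rplp2, in BDIV minus BDIX. Rplp1, its stalk partner, was -0.24 (SE 0.22, limma adjusted p = 0.47) in BDIV minus BDIX, and Rplp0 0.06 (SE 0.18, limma adjusted p = 0.853). None of the 7 genes around the exit of the peptide tunnel was called in any strain comparison tested. Among them Rpl31 came nearest, at 1.12 (SE 0.30, limma adjusted p = 0.0528) in Mss4a minus BDIX. Of the Diamond-Blackfan anaemia genes 8 had a probe, 6 passed the detection filter and 2 were called, in different comparisons. They were Rps24 in Mss4a minus BDIX and Rpl5 in BDIV minus BDIX. Rps2 and Rps3 lie at the mRNA entry of the small subunit, and Rps14 and Rps26 at the mRNA exit. None of them was called in the pairs of strains tested, which did not set BDIV against either congenic strain. Rps2 differed over the 4 strains (limma moderated F, adjusted p = 0.0307). Its highest strain mean was 10.75, for BDIV, and its lowest 9.56, for Mss4d, a pair not tested. Rps6, the substrate of S6 kinase, differed from BDIX by 0.06 in BDIV, 0.19 in Mss4a and -0.09 in Mss4d (SE 0.18 each) and was not called. Rps9 alone had 2 probes, and they disagreed: in Mss4a minus BDIX the brighter gave 0.08 (SE 0.28) and the other -1.03 (SE 0.37), neither past the threshold.

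Other genes of ribosome making and translation were followed in lists. The shares of all probes called, 21.0% in BDIV, 12.2% in Mss4a and 5.34% in Mss4d against BDIX, stand beside the counts that follow, which are given as a description. Of 46 ribosome biogenesis factors tested, 1 was higher and 4 lower in BDIV than in BDIX, 1 higher and 7 lower in Mss4a, and 0 higher and 2 lower in Mss4d, Gnl2 and the nucleolar chaperone Npm1 (-1.21, SE 0.18, limma adjusted p = 0.0223). Gnl2, a nucleolar GTPase of large subunit export, was at 7.27 and 7.32 in the Mss4a male and female pools, against 9.11 and 9.24 in BDIX (difference -1.88, SE 0.18, limma adjusted p = 0.00782). Of 32 initiation and elongation factors, 1 was higher and 1 lower in BDIV, 0 higher and 5 lower in Mss4a, and 0 higher and 2 lower in Mss4d. Eif4a1, the helicase of the cap complex, was at 9.37 and 9.12 in Mss4a, against 11.26 and 11.09 in BDIX (difference -1.93, SE 0.18, limma adjusted p = 0.00782). Eef1a2, the elongation factor of neurons and muscle, was 1.21 higher in BDIV (SE 0.30, limma adjusted p = 0.0318).

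Of 20 S6 kinase, mTOR and TOP control genes, 0 were higher and 4 lower in BDIV than in BDIX, a share near that of all probes. Among them were Eef2k, the kinase that slows elongation (-1.57, SE 0.20, limma adjusted p = 0.00678), and Tsc2, a brake on mTOR (-0.74, SE 0.19, limma adjusted p = 0.0352). In Mss4a, Rps6kb1, which encodes S6 kinase 1, was lower (-1.29, SE 0.26, limma adjusted p = 0.0269) and its paralogue Rps6kb2 higher (0.87, SE 0.19, limma adjusted p = 0.0354). Of 8 TOP partners and ribosome genes with other names, 0 were higher in any comparison with BDIX, and Nap1l1, a histone chaperone, was lower in Mss4a (-1.60, SE 0.21, limma adjusted p = 0.0127) and in Mss4d (-1.37, SE 0.21, limma adjusted p = 0.0237).

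Between male and female pools over all strains, 0 of the 62 genes were called, beside 0% of all probes (limma, with 0 members and 526 of all probes at an unadjusted p under 0.05). The median difference was 0.12, against -0.01 over all probes, with 48 of 62 genes above 0. The strains did not give the same values. In BDIX, 57 of the 62 genes were higher in the male pool, with a median of 0.65 and quartiles of 0.43 and 0.87. In BDIV, Mss4a and Mss4d the medians were -0.06, -0.04 and 0, with 20, 23 and 29 genes higher in the male pool.

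The genes that were lower in the BDIX female than in the BDIX male pool came from both subunits. All 23 Rps genes, Rps19bp1 counted among them, and 34 of 39 Rpl genes were higher in the BDIX male pool, with medians of 0.68 and 0.59. Rps10, a small subunit protein, was at 14.31 and 13.46 in the BDIX male and female pools and at 14.02 to 14.32 on the other 6 arrays. Rpl35, at the tunnel exit, was at 13.55 and 12.67, and at 13.37 to 13.62 on the other 6. In both genes the BDIX female pool alone was low. The widest gaps were those of Rpl37l1 (1.47), Rpl24 (1.31) and Rpl36al1 (1.19), and the 5 genes that did not follow were Rpl7l1 (-0.29), Rpl4 (-0.23), Rpl3l (-0.19), Rpl12 (-0.14) and Rpl15 (-0.12).

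**Figure D5:**
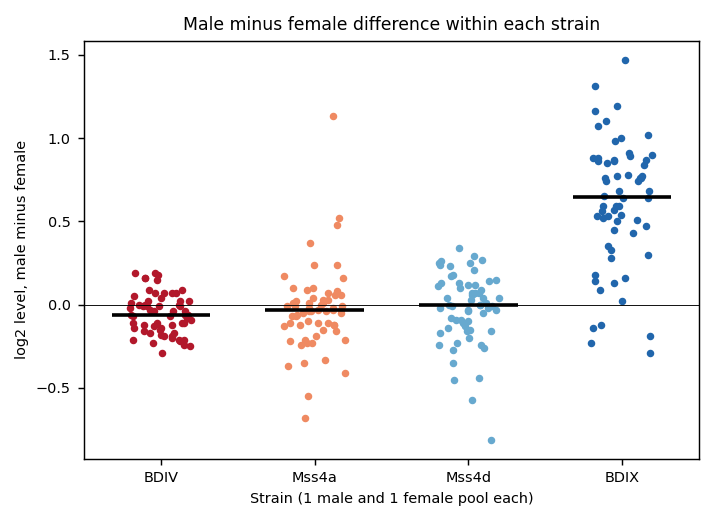
Male minus female difference in log2 level (vertical axis) of the 62 genes in each strain (horizontal axis, 1 male and 1 female pool each), with the median as a black line. The points centre near 0 in BDIV, Mss4a and Mss4d and on 0.65 in BDIX.

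The gap was not shared by bright probes at large or by the translation lists. In BDIX the median male minus female difference was -0.10 over the 801 other probes with a mean above 12 and -0.03 over all probes. It was 0 over the biogenesis factors, -0.13 over the initiation and elongation factors, -0.22 over the S6 kinase and mTOR genes and 0.18 over the 8 TOP partners. A difference above 0.5 was found in 69.4% of the members and in 13.9% of all probes. Members with a TOP start (20) had a median of 0.60 and those with another annotated start (31) one of 0.65. A term for the male minus female difference in BDIX beyond that in the other 3 strains, added to the fit after the values were seen, left 2 residual degrees of freedom. It called 0 of the 62 genes (lowest limma adjusted p 0.331) and 0% of all probes, with 28 members and 1578 of the 13114 probes at an unadjusted p under 0.05 in limma. Its median over the members was 0.65, with a median SE of 0.25 per gene. With 1 array per strain and sex, a property of that pool cannot be told apart from one of that array.

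Other values of the BDIX female array also differed from those of the male array. Schwann cell markers summed to 108179 in the male and 142465 in the female pool, sensory neuron markers to 101572 and 115878, granulocyte markers to 7725 and 1509, pituitary markers to 2122 and 6587, and red cell markers to 76906 and 81677. Probes above background made up 52.8% and 54.3%. Their part in the ribosomal protein values was not tested.

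The strain differences of the set were not the same in the pools of each sex. In the male pools the median BDIV minus BDIX difference was -0.11, with 15 genes above 0 and 44 below, and in the female pools 0.58, with 56 above and 6 below. For Mss4a minus BDIX it was -0.17 in the male and 0.35 in the female pools, and for Mss4d minus BDIX -0.07 and 0.58. For Mss4a minus Mss4d, which does not use the BDIX pools, it was -0.16 and -0.14. The 3 comparisons with BDIX share its pools, so these values are not separate observations.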

How the data were processed

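Total RNA from pooled trigeminal nerves was labelled with biotin and hybridised to RatRef-12 arrays, 1 per strain and sex, and read in GenomeStudio 2010, per the labels' protocols and the submitters' design text. The deposited signals are linear bead intensity without scaling between arrays, each with a deposited detection p-value. The authors' value table holds intensity on a linear scale with a shift and a scale per array, with values below 0, and its options are not given in the sources used here. It served as an alternative.

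In R 4.3.3 with limma 3.58.1, neqc (offset 16, with negative controls taken from the detection p-values, quantile normalization) gave log2 values. Each probe was fitted with strain and sex as terms over the 8 arrays, with 3 residual degrees of freedom, a moderated variance of prior SD 0.223 and 4.09 prior degrees of freedom. P-values were two-sided and Benjamini-Hochberg adjusted over 13114 probes within each of 5 comparisons, with 0.05 as threshold. No pool was repeated within a strain and sex. The p-values therefore set each strain or sex difference against how far these pools depart from additive strain and sex terms, after moderation. In the members the median male minus female difference was 0.65 in BDIX and -0.06, -0.04 and 0 in BDIV, Mss4a and Mss4d. That departure enters their p-values and the shares called. Each gene was represented by its brightest probe. The fit was tested on simulated data.

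Genes matched RefSeq by identifier for 66 of 67 members. Named genes were Rpl30, all members past the threshold, those with the 5 highest, lowest, widest and narrowest values, genes with 2 probes, up to 4 per role group or list by level or size, and the 5 probes most like Rpl30; a few more were named after their values were seen. Members and lists were chosen with earlier results of these data known. Alternatives were no background correction, median scaling, the authors' values, no filter, a stricter filter, a trended robust variance, no sex term, the mean of a gene's probes and leaving out each array.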

Additional observations from a re-analysis of the deposited data

Results flagged for a closer look

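Male minus female values of the set went different ways in different strains. The median over the 62 genes was 0.65 in BDIX, against -0.06 in BDIV, -0.04 in Mss4a and 0 in Mss4d, on the log2 scale. A limma term for BDIX against the other 3 strains, chosen after the values were seen, called 0 of the 62 genes and 0% of all probes, with 28 and 1578 at an unadjusted p under 0.05.

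Strain differences of the set took opposite signs in the male and female pools. The median of BDIV minus BDIX was -0.11 in the male pools and 0.58 in the female pools. That of Mss4a minus BDIX was -0.17 and 0.35, and that of Mss4d minus BDIX -0.07 and 0.58. All 3 use the same BDIX pools, and none of these differences between the sexes was tested.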

How the results depend on the processing

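Leaving out each of the 8 arrays gave 0 to 15 called genes of 62 in BDIV minus BDIX, with a median of -0.10 to 0.56. It gave 0 to 5 in Mss4a minus BDIX (median -0.21 to 0.31), 0 to 10 in Mss4d minus BDIX (-0.09 to 0.57), 0 to 0 in Mss4a minus Mss4d (-0.29 to -0.04), 0 to 0 between the sexes (-0.05 to 0.20) and 0 to 29 over the 4 strains. The Rpl30 level was 5.33 to 6.35 higher in BDIV than in BDIX, and 4.94 higher without background correction. The lowest medians against BDIX came without the BDIX female array. Most runs that left out an array of a compared strain passed few probes of any kind, so a lost call there is no measure of stability. None of the 12 differences past the threshold changed sign in any alternative. Testing all probes without the filter left 2 genes in BDIV minus BDIX, Rpl5 and Rpl12 (3.23%, against 10.1% of all probes). Rplp2, Rpl22l1 and Rpl24 missed the threshold there (limma adjusted p 0.0572, 0.0599 and 0.102). Rpl24 also missed it with the authors' values (limma adjusted p = 0.0582) and without the sex term (limma adjusted p = 0.0619). No filter left 0 members in Mss4d minus BDIX and 0 in Mss4a minus Mss4d, against 1.35% and 0.0932% of all probes. The authors' values gave 0 in Mss4a minus Mss4d, against 0.747%. Those runs had 13, 15 and 15 members at an unadjusted p under 0.05 in limma. In Mss4a minus BDIX the count was 8 without background correction, with the stricter filter or without the sex term, and 9 with a trended robust variance. Scaling arrays to their medians gave 15 there (24.2%, against 30.5% of all probes, median -0.24). It gave 10 in Mss4d minus BDIX (16.1%, against 20.8%, median 0.61) and 40 in Mss4a minus Mss4d (64.5%, against 50.9%, median -0.97). Over the 4 strains it gave 37 (59.7%, against 69.3%), and the median of all probes moved with the scaling. The cause of these changes was not tested. Alternatives and a term for the male minus female difference within BDIX, and the counts without Rpl12, were added after seeing the data: the BDIX median was 0.63 to 0.85 under the normalizations tried and 0.89 in the deposited signals as they stand, and without Rpl12 the BDIV minus BDIX count was 4. No paired analysis was possible because the pools share only strain and sex, and the fit holds both as terms. Signals near background limit Rpl12, Rpl30 in Mss4a and the 4 genes not above background.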
